A study of Mus musculus with 8 samples.

Results

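Matrix metalloproteinases (MMPs) and their tissue inhibitors (TIMPs) were examined in mouse pancreatic stellate cells (PSCs) exposed to secreted products of pancreatic cancer organoids. The genes were taken by symbol from a fixed list: Mmp2, Mmp3, Mmp9, Mmp10, Mmp13, Mmp14, Mmp19, Timp1, Timp2 and Timp3, which are 10 of the 12160 genes in the count table. The cells were an immortalized PSC line, seeded in growth factor reduced Matrigel in DMEM with 10% FBS according to the sample records. After 4 days the medium was exchanged for another 4 days, either for conditioned medium (CM) of KPC organoids carrying an shRNA against Brca2 (shBrca2-CM, n = 3), for CM of KPC organoids carrying a control shRNA (shControl-CM, n = 3) or for a control medium (n = 2).

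KPC organoids are mouse pancreatic ductal cancer cells grown in 3D, and the comparison of the CMs asks whether loss of BRCA2 in the cancer cells changes what the neighbouring stellate cells express. Both shRNAs were in the organoids, so the PSCs of all groups shared 1 genotype and the Brca2 knockdown itself cannot be checked in these libraries. The control medium is named DMEM in the sample titles and the PSCs' own CM in the recorded treatment, and it is called growth medium here. The study's methods describe organoid CM as collected in DMEM with less FBS than the growth medium. The CMs may therefore differ from growth medium in serum as well as in organoid products, which cannot be told apart here. Because all libraries come from 1 immortalized line, the spread between domes of Matrigel is not a spread between animals. Whether the domes of a group received the same preparation of CM is not given in the sources used here. The spread between domes may therefore not cover that between organoid cultures. The growth medium group served as reference for both CMs, so the comparisons of the CMs with it share the same 2 libraries and are not independent.

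MMPs are zinc-dependent endopeptidases that are made as inactive precursors and, once activated, cleave collagens, proteoglycans, growth factors and other proteases. TIMPs bind the active site of MMPs and, to varying degrees, of the related ADAM and ADAMTS proteases, so that proteolysis at the cell surface depends on both families. In the pancreas, activated stellate cells and cancer-associated fibroblasts are known as a main source of matrix and of the enzymes that remodel it. RNA levels give neither the activation of a precursor nor the binding of an inhibitor.

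Total counts ran from 655996 to 1095534 per library for shBrca2-CM and from 1093609 to 1624392 for shControl-CM, and the growth medium libraries had 4623846 and 5476988, so 3 counts corresponded to between 0.521 and 4.34 CPM (counts scaled to a common library total, with TMM factors over all 8 libraries). All 8 stellate and fibroblast markers were in the table, with a summed level of 2277 to 2408 CPM with shBrca2-CM, 2749 to 3363 CPM with shControl-CM and 4817 to 5714 CPM with growth medium. Vim was highest with growth medium (a mean of 3756 CPM, against 586 for shBrca2-CM and 361 for shControl-CM) and Dcn was lowest there (92.4 CPM, against 1086 and 2107), so the sum's order followed Vim against growth medium and Dcn between the CMs. The list's median log2 fold change against growth medium was 0.03 with shControl-CM and -0.16 with shBrca2-CM. Of 6 epithelial markers only Krt18 and Krt19 were in the table, summing to 21.7 to 31.1 CPM with shBrca2-CM, 7.69 to 21.1 CPM with shControl-CM and 26.6 to 27.5 CPM with growth medium, without overlap between the CMs. Krt19 was higher with shBrca2-CM than with shControl-CM (log2 fold change 2.12, adjusted p = 0.0632, edgeR), a call lost in both DESeq2 tests and without shBrca2-CM library 2 or 3 or shControl-CM library 2, and it was lower with both CMs than with growth medium (-1.03 with shBrca2-CM and -3.18 with shControl-CM). Krt18 was higher with both CMs than with growth medium (2.66 and 2.43), for shControl-CM a call lost without growth medium library 1 (1.87 to 3.17 over the alternatives). Of 6 immune markers only Cd68, Lyz2 and Csf1r were in the table, summing to 13.0 to 26.6 CPM with shBrca2-CM, 23.7 to 36.0 CPM with shControl-CM and 9.46 to 11.5 CPM with growth medium. With shControl-CM Cd68 (4.01-fold, adjusted p = 0.00187, edgeR) and Csf1r (4.25-fold, adjusted p = 0.00674) were both higher than in growth medium. With shBrca2-CM Cd68 carried the higher sum (13.5 against 4.28 CPM in growth medium), while Lyz2 (3.14 against 4.00 CPM) and Csf1r (1.60 against 2.18 CPM) were not DE. Endothelial markers, 2 of 4 in the table, summed to at most 3.48 CPM, and the only acinar marker of 4 in the table, Cela1, ran from 45.8 to 83.9 CPM. The part of these markers in the results was not tested, and in bulk RNA fewer cells of a type and less RNA per cell cannot be told apart.

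Mmp13, Mmp3 and Mmp10 lie near each other on chromosome 9 (GRCm38.p6 annotation, the mm10 assembly of the files). The interval from the start of Mmp13 (7272514) to the end of Mmp10 (7510242) has 237729 bases and holds 6 protein-coding MMP genes, 3 of them in the count table. The 100 bases before the annotated start of each are shown because these were the genes nearest to absent in growth medium. All are on the plus strand and were taken from RefSeq promoter windows, and capitals mark the AP-1 motif (TGAGTCA, or TGACTCA where it is read on the other strand) and TATAAA.
Mmp13, chr9:7272414-7272513: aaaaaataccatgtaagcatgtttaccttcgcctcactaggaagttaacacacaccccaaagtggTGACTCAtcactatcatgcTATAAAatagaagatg
Mmp3, chr9:7445722-7445821: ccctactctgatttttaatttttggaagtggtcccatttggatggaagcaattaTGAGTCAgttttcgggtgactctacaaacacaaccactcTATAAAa
Mmp10, chr9:7502242-7502341: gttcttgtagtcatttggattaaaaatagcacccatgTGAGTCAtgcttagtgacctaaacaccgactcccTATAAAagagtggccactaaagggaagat

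The AP-1 motif began 35 bases before the start of Mmp13, 46 before that of Mmp3 and 63 before that of Mmp10. AP-1 is the dimer of FOS and JUN family proteins, and a proximal site of this kind is a textbook feature of the inducible MMP genes. Promoter windows of 300 bases (250 before and 50 after the start) were found for 7 of the 10 genes. None was found for Mmp2, Mmp9 and Mmp19, so the motifs of these genes are not known here, whether the genes rose or fell. The AP-1 motif stood in the windows of Mmp13, Mmp3 and Mmp10 and in none of the other 4 (Mmp14, Timp1, Timp2 and Timp3), while 5.20% of all 32851 windows held it on either strand. Among the 12339 windows of genes in the count table the share was 3.87%. The same 3 windows held TATAAA, which 13.62% of all windows and 7.23% of those of genes in the count table held. Both motifs stood in 0.941% of all windows. The ETS-type motif AGGAAG was found in 5 of the 7 (Mmp13, Mmp3, Mmp14, Timp1 and Timp3) and in 35.35% of all windows (32.91% of those of genes in the count table). These are exact matches of letters in a window, which miss sites of variant letters, and not measured binding.

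In CM from shControl organoids the stellate cells expressed far more Mmp3 and Mmp13 than in growth medium, more Mmp2, Mmp10, Mmp19 and Timp1, and less Mmp9, Mmp14, Timp2 and Timp3. Genes were called DE where the adjusted p was under 0.1 (edgeR quasi-likelihood test, Benjamini-Hochberg over all genes tested), the log2 fold change exceeded 0.5 in size and the normalized count averaged over 5. By this rule all 10 genes were DE between shControl-CM and growth medium, 6 higher and 4 lower with the CM, where 37.1% of all genes tested were DE, and their median log2 fold change was 1.27, against -0.10 over all genes. With shBrca2-CM 8 of the 10 were DE against growth medium, 5 higher and 3 lower, where 37.8% of all genes were, with a median log2 fold change of 0.93, against -0.05 over all genes. All 10 had groups that did not overlap in both of these comparisons, as had 59.9% and 57.4% of all genes tested. Between the CMs, 3 of the 10 were DE, where 3.13% of all genes were (1.58% higher and 1.55% lower with shBrca2-CM): Timp1 and Mmp3 were lower and Timp3 was higher with shBrca2-CM. The median log2 fold change between the CMs was -0.26, against 0.03 over all genes. The 10 genes and the lists below were chosen with earlier results of these data known. Their counts beside the shares over all genes are therefore descriptions and not a test.

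**Figure D1:**
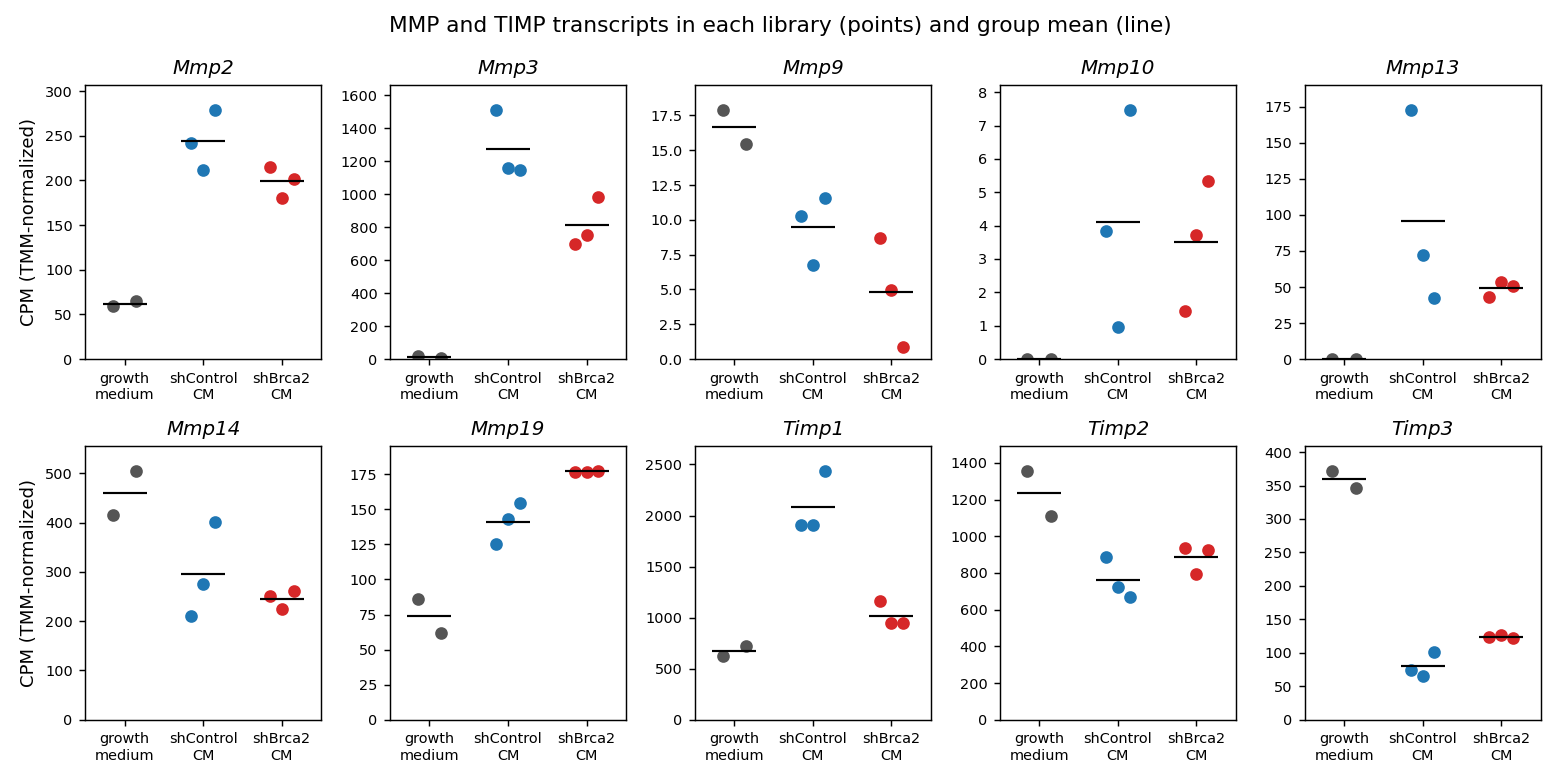
TMM-normalized CPM (linear axes from 0, a separate scale for each gene) of the 10 MMP and TIMP genes in each library of the 3 groups, with 1 point for each library and a line at the group mean. Mmp3, Mmp10 and Mmp13 lie near 0 in growth medium, Timp1 is highest in all 3 shControl-CM libraries, and Timp3 is highest in growth medium.

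Mmp3 encodes stromelysin-1, which cleaves proteoglycans, laminin and fibronectin and activates other pro-MMPs. Its level was 18.6 and 8.81 CPM in growth medium, 1511, 1157 and 1144 CPM with shControl-CM, and 699, 754 and 985 CPM with shBrca2-CM. The order of the groups was the same in every library, with no overlap between any pair of groups. Against growth medium Mmp3 was 90.8-fold higher with shControl-CM (log2 fold change 6.50 ± 0.34 SE, adjusted p = 1.28e-06, edgeR quasi-likelihood test) and 58.2-fold higher with shBrca2-CM (5.86 ± 0.21 SE, adjusted p = 1.13e-32). The test pools spread over all genes of a fit, to a different degree in each fit. The sizes of p-values are therefore not comparable between comparisons, here and below. Without growth medium library 1, the higher of the pair, these log2 fold changes were 7.17 and 6.52.

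Between the CMs, Mmp3 averaged 813 ± 152 CPM in the shBrca2-CM libraries and 1271 ± 208 CPM in those with shControl-CM (SD, n = 3 each), a 1.54-fold lower level with shBrca2-CM (log2 fold change -0.62 ± 0.16 SE, adjusted p = 0.0750, edgeR). The call rested on single libraries: it was lost without shBrca2-CM library 1 (adjusted p = 0.321, edgeR), without shBrca2-CM library 2 (0.360), without shControl-CM library 2 (0.149), and without shControl-CM library 1, where the log2 fold change was -0.50. It was also lost with total counts in place of TMM (adjusted p = 0.157) and with all 3 groups in one fit (0.117).

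Mmp13 encodes collagenase-3, which cleaves fibrillar collagen and is the main interstitial collagenase of the mouse. It had 2 and 1 counts in the growth medium libraries (0.348 and 0.215 CPM), 270, 75 and 62 counts with shControl-CM (173, 72.5 and 42.1 CPM), and 30, 43 and 57 counts with shBrca2-CM (43.4, 53.5 and 50.6 CPM). Growth medium was thus at the limit of detection although it had the deepest libraries. With 407 counts against 3, the ratio of shControl-CM to growth medium was 347 (95% interval 118 to 1690, counting error only), or 189.5 without shControl-CM library 1. With 130 counts against 3, the ratio for shBrca2-CM was 172 (57.6 to 845), and the adjusted p-values were 1.08e-04 and 4.35e-22 (edgeR).

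The CM groups overlapped in Mmp13: shControl-CM library 1 stood above all others and library 3 below all shBrca2-CM libraries. Means were 95.9 ± 68.5 CPM in the shControl-CM libraries and 49.2 ± 5.20 CPM in those with shBrca2-CM (SD, n = 3 each), with a log2 fold change of -0.95 ± 0.41 SE that was not DE (adjusted p = 0.345, edgeR). Leaving out shControl-CM library 1 moved it to -0.18 (adjusted p = 0.733), and leaving out shControl-CM library 3 moved it to -1.33 and made it DE (0.00363).

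Mmp10, which encodes stromelysin-2 and is a close paralog of Mmp3, was the least abundant of the group. It had no count in either growth medium library, 6, 1 and 11 counts with shControl-CM (3.84, 0.966 and 7.47 CPM), and 1, 3 and 6 counts with shBrca2-CM (1.45, 3.73 and 5.33 CPM). All CM libraries held a count, but no more than 11. Measured against the level of 3 counts in a growth medium library, the level of Mmp10 with shControl-CM was at least 6.35-fold higher (adjusted p = 0.00499, edgeR). For shBrca2-CM the bound was 5.43-fold (adjusted p = 8.92e-05), where its mean normalized count of 3.69 kept it from being called DE. Without the highest library of each CM group these bounds were 3.73 and 4.02. Between the CMs the log2 fold change was -0.18 ± 0.70 SE (adjusted p = 0.946, edgeR), and how reads that match both paralogs were treated in counting is not given.

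Mmp2 and Mmp9 encode the gelatinases A and B, which cleave denatured collagen and the type IV collagen of basement membranes. Mmp2 measured 59.4 and 64.5 CPM in growth medium, 242, 212 and 279 CPM with shControl-CM, and 216, 180.4 and 202 CPM with shBrca2-CM. Both CM groups lay well above growth medium, and they overlapped each other. The increase was 3.92-fold with shControl-CM (log2 fold change 1.97 ± 0.18 SE, adjusted p = 5.30e-05, edgeR) and 3.22-fold with shBrca2-CM (1.69 ± 0.16 SE, adjusted p = 1.30e-13), and the difference between the CMs was -0.27 ± 0.14 SE (adjusted p = 0.462).

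Mmp9 moved the other way and was scarce. It had 103 and 72 counts in growth medium (17.9 and 15.5 CPM), 16, 7 and 17 counts with shControl-CM (10.3, 6.76 and 11.5 CPM), and 6, 4 and 1 counts with shBrca2-CM (8.68, 4.98 and 0.888 CPM). Growth medium was highest, and the CM groups overlapped. The fall against growth medium was 3.91-fold with shBrca2-CM (log2 fold change -1.97 ± 0.42 SE, adjusted p = 1.31e-04, edgeR) and -0.79 ± 0.31 SE on the log2 scale with shControl-CM (adjusted p = 0.0778). The former moved to -2.67 without shBrca2-CM library 1 and to -1.31 without library 3 and stayed DE. The latter call was lost with DESeq2's likelihood ratio test (adjusted p = 0.208) and without shControl-CM library 2 (0.208), growth medium library 1 (0.372) or growth medium library 2 (0.211). Between the CMs the log2 fold change of Mmp9 was -1.11 ± 0.59 SE (adjusted p = 0.467).

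Mmp14 encodes MT1-MMP, a membrane-anchored collagenase that activates pro-MMP2 at the cell surface with the help of TIMP2. It measured 416 and 505 CPM in growth medium, 211, 275 and 402 CPM with shControl-CM, and 252, 225 and 261 CPM with shBrca2-CM. Growth medium was highest, and shControl-CM library 3 came close to it. Mmp14 was lower by 0.90 ± 0.14 SE on the log2 scale with shBrca2-CM (adjusted p = 5.21e-07, edgeR) and by 0.64 ± 0.23 SE with shControl-CM (adjusted p = 0.0588).

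The call of Mmp14 for shControl-CM was lost without shControl-CM library 1 (log2 fold change -0.44), shControl-CM library 2 (adjusted p = 0.190, edgeR), growth medium library 1 (0.171) or growth medium library 2 (0.329). Between the CMs the log2 fold change was -0.24 ± 0.20 SE (adjusted p = 0.681, edgeR), and 0.03 without shControl-CM library 3. Thus Mmp2 was higher, and its activator Mmp14 lower, with both CMs than with growth medium.

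Mmp19, a secreted MMP that cleaves basement membrane components, measured 86.0 and 61.9 CPM in growth medium, 126, 143 and 154 CPM with shControl-CM, and 176, 177 and 178 CPM with shBrca2-CM. Its order therefore differed from that of Mmp3, with shBrca2-CM above shControl-CM in every library. It was higher than in growth medium with shControl-CM (log2 fold change 0.92 ± 0.20 SE, adjusted p = 0.00613, edgeR) and with shBrca2-CM (1.26 ± 0.16 SE, adjusted p = 2.29e-09). The CMs did not overlap, as for 19.8% of all genes tested, but the difference of 0.36 ± 0.14 SE was not DE (adjusted p = 0.267). Mmp19 overlaps Tmem198b in the annotation, and Tmem198b had 20 to 156 counts per library.

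Timp1 encodes a secreted inhibitor of most soluble MMPs and is a commonly induced gene of activated fibroblasts. Its level was 629 and 720.1 CPM in growth medium, 1907, 1911 and 2440.2 CPM with shControl-CM, and 1166, 949 and 947 CPM with shBrca2-CM. The 3 groups were fully separated, with shBrca2-CM between the others. Timp1 was 3.08-fold higher with shControl-CM than with growth medium (log2 fold change 1.62 ± 0.18 SE, adjusted p = 1.55e-04, edgeR) and 1.52-fold higher with shBrca2-CM (0.60 ± 0.14 SE, adjusted p = 3.03e-04). The latter fell to 0.49, under the threshold of 0.5, without shBrca2-CM library 1.

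Between the CMs, Timp1 averaged 1021 ± 126 CPM in the shBrca2-CM libraries and 2086 ± 307 CPM in those with shControl-CM (SD, n = 3 each). It was 2.01-fold lower with shBrca2-CM (log2 fold change -1.00 ± 0.14 SE, adjusted p = 0.00230, edgeR). This was the only one of the 3 calls between the CMs that held without any 1 library, with a log2 fold change of -1.12 to -0.89 and an adjusted p of at most 0.0392. Timp1 lies within Syn1 on the X chromosome, and Syn1 had 0 to 31 counts per library.

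Timp2 encodes the inhibitor that bridges MT1-MMP and pro-MMP2 at the cell surface. It measured 1357 and 1109 CPM in growth medium, 889, 722 and 669.6 CPM with shControl-CM, and 937, 795 and 922 CPM with shBrca2-CM. Growth medium was highest, and the CM groups overlapped. The log2 fold change was -0.70 ± 0.17 SE with shControl-CM (adjusted p = 0.0126, edgeR), a call lost without growth medium library 1 (0.164). With shBrca2-CM it was -0.48 ± 0.13 SE (adjusted p = 0.00307), just short of the threshold of 0.5, and it passed that threshold without growth medium library 2 (-0.61), shBrca2-CM library 1 (-0.52) or shBrca2-CM library 3 (-0.51). Between the CMs it was 0.24 ± 0.14 SE (adjusted p = 0.491).

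Timp3 encodes the matrix-bound inhibitor, which also inhibits ADAM17 and several ADAMTS aggrecanases. Its level was 372 and 347 CPM in growth medium, 73.7, 65.7 and 101 CPM with shControl-CM, and 124, 127 and 122 CPM with shBrca2-CM. The order of the groups was the reverse of that of Timp1, again with no overlap. Timp3 was 4.48-fold lower with shControl-CM than with growth medium (log2 fold change -2.16 ± 0.19 SE, adjusted p = 4.12e-05, edgeR) and 2.89-fold lower with shBrca2-CM (-1.53 ± 0.15 SE, adjusted p = 4.29e-13).

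Between the CMs, Timp3 averaged 124 ± 2.66 CPM in the shBrca2-CM libraries and 80.2 ± 18.6 CPM in those with shControl-CM (SD, n = 3 each), 1.57-fold higher with shBrca2-CM (log2 fold change 0.65 ± 0.18 SE, adjusted p = 0.0952, edgeR). The adjusted p was close to the threshold of 0.1. The call was lost without shBrca2-CM library 1 (0.270), shBrca2-CM library 2 (0.337), shBrca2-CM library 3 (0.255) or shControl-CM library 2 (0.399), and with DESeq2's likelihood ratio test (0.168) or Wald test (0.175) and DESeq2's size factors (0.118).

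**Figure D2:**
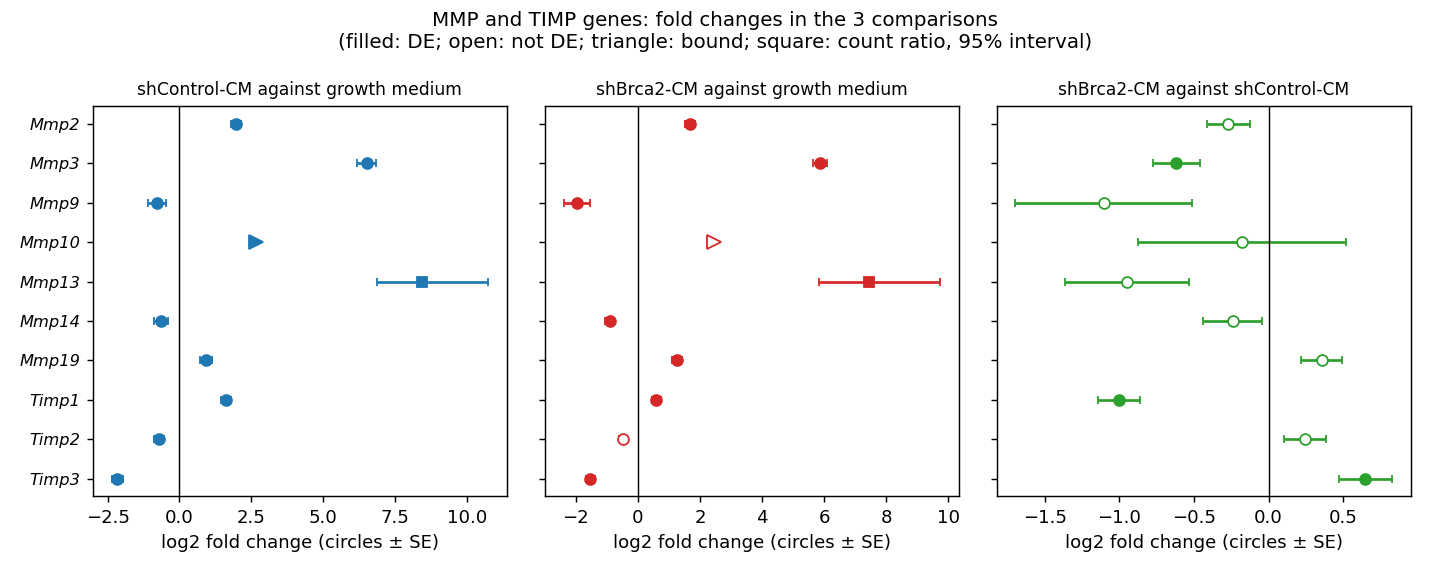
Log2 fold changes of the 10 MMP and TIMP genes in the 3 comparisons, with circles for edgeR estimates ± SE, squares for Mmp13 as a ratio of counts with its 95% interval, triangles for Mmp10 as a lower bound, and filled symbols for DE genes. The horizontal scales differ between panels. Between the CMs only Mmp3 (-0.62), Timp1 (-1.00) and Timp3 (0.65) are filled.

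The make-up of both families differed between the media. Because each read of these libraries came from the 3′ end of a transcript, counts of different genes were set side by side within a library without scaling by length. Mmp14 held 69.5% and 77.0% of the counts on the 7 MMP genes in growth medium, but 9.29 to 19.7% with shControl-CM and 15.5 to 18.0% with shBrca2-CM. Mmp3 took its place, from 1.34% and 3.11% in growth medium to 56.1 to 66.4% with shControl-CM and 50.1 to 58.6% with shBrca2-CM. A membrane-bound collagenase thus dominated the MMP transcripts in growth medium, and a secreted stromelysin in the CMs.

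Among the 3 inhibitors, Timp2 was the most abundant in growth medium, with 51.0% and 57.6% of the TIMP counts, against 26.7% and 33.1% for Timp1. With shControl-CM Timp1 held 66.5 to 76.0% and Timp2 20.9 to 31.0%. With shBrca2-CM the shares were closer together, at 47.6 to 52.3% for Timp1 and 42.1 to 46.3% for Timp2. The share of Timp3 was 15.8% and 15.9% in growth medium, 2.43 to 3.15% with shControl-CM and 5.58 to 6.78% with shBrca2-CM, without overlap between groups. These shares are descriptions and were not tested.

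**Figure D3:**
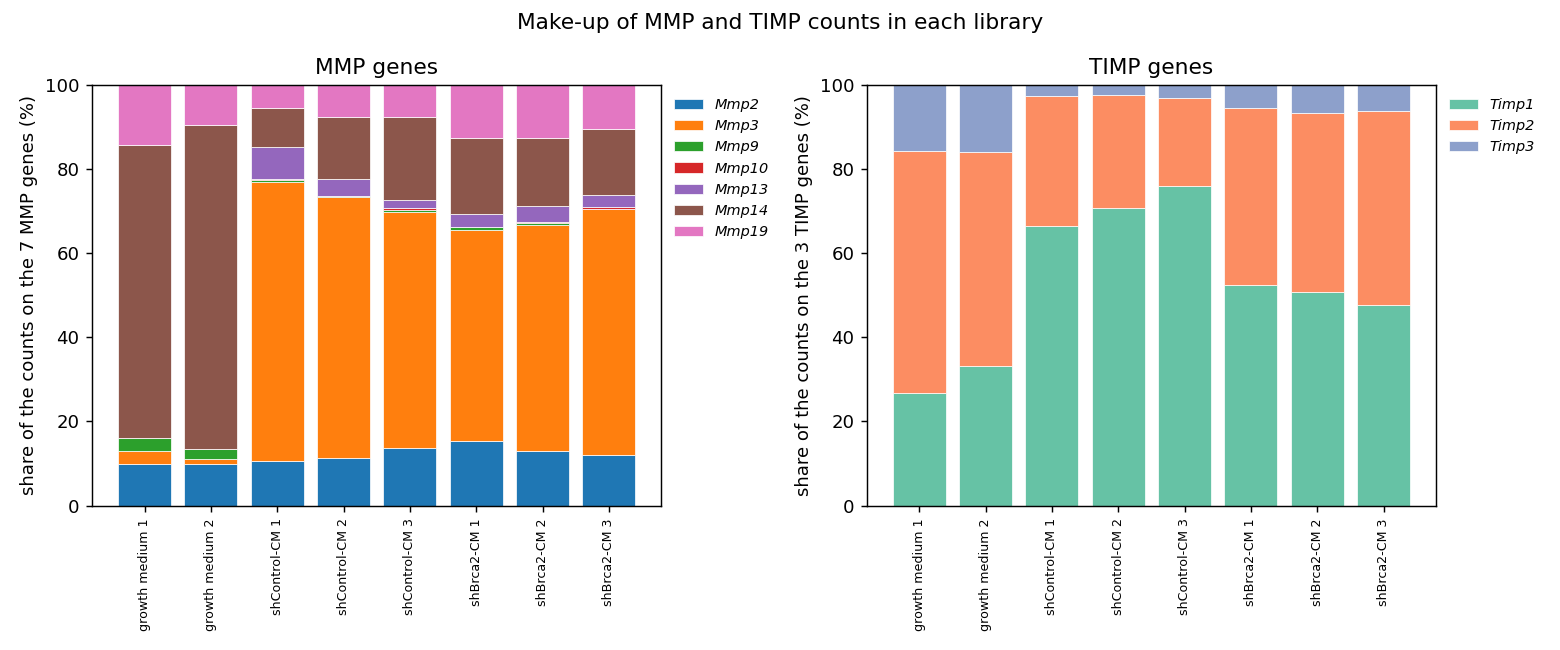
Share (%) of the counts on the 7 MMP genes (left) and on the 3 TIMP genes (right) held by each gene, with 1 stacked bar for each library. Mmp14 fills most of the MMP bar in growth medium and Mmp3 in the CMs, and Timp1 takes its largest share of the TIMP counts with shControl-CM (66.5 to 76.0%).

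Summed over the genes measured, MMP counts per TIMP count were 0.254 and 0.302 in the growth medium libraries, 0.636 to 0.793 with shControl-CM and 0.627 to 0.845 with shBrca2-CM. The CMs overlapped in this ratio and both lay above growth medium. Set against Timp1 alone, the CMs separated for several genes: there were 185 to 213 Mmp2 counts per 1000 Timp1 counts with shBrca2-CM and 111 to 127 with shControl-CM. For Mmp19 these were 151 to 187 and 63.2 to 74.8, for Mmp14 216 to 276 and 111 to 165, and for Timp3 107 to 134 and 34.4 to 41.5. For Mmp3 they overlapped, at 599 to 1040.3 with shBrca2-CM and 469 to 792 with shControl-CM. Since Timp1 was lower with shBrca2-CM, these ratios carry that difference, and they do not depend on how libraries were scaled.

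Of 17 other MMP and TIMP genes, 4 were in the table (Mmp11, Mmp15, Mmp17 and Mmp23). Mmp11, which encodes stromelysin-3, a stromal enzyme of many carcinomas, was 132 ± 11.5 CPM in the shBrca2-CM libraries and 80.1 ± 10.9 CPM in those with shControl-CM (SD, n = 3 each). With growth medium it was 87.7 and 87.8 CPM. It was higher with shBrca2-CM than with shControl-CM (log2 fold change 0.75 ± 0.16 SE, adjusted p = 0.0299, edgeR) and than with growth medium (0.59 ± 0.16 SE, adjusted p = 0.00167), a pattern unlike that of Mmp3. It was the only DE gene of the 3 tested between the CMs, where 3.13% of all genes were DE, a call lost without any 1 of the shBrca2-CM libraries, with log2 fold changes of 0.62 to 0.87 over all 16 alternatives. Mmp23 was lower with shControl-CM than with growth medium (-0.81 ± 0.31 SE, adjusted p = 0.0714), the only DE gene of the 4 tested there, where 37.1% of all genes were DE, and a call lost in both DESeq2 tests and without shControl-CM library 1 or 2 or either growth medium library (-1.26 to -0.54 over 15 alternatives). The median log2 fold changes of this list were 0.48 between the CMs, -0.39 for shControl-CM and -0.38 for shBrca2-CM against growth medium.

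Of 24 ADAM and ADAMTS genes, the related proteases that TIMPs also inhibit in part, 17 were tested against growth medium. With shControl-CM 5 rose and 6 fell, where 18.2% of all genes rose and 18.9% fell (median log2 fold change -0.36). Of the list, 6 genes in place of 11 were DE without growth medium library 1 and 6 without library 2, where all genes fell from 37.1% DE to 16.4% and 19.3%: Adam12, Adamts2, Adamts10 and Adam10 lost the call without either of them (Adam12 also for shBrca2-CM), Adam15 without library 1 and Adam33 without library 2. With shBrca2-CM 6 rose and 4 fell, where 18.6% of all genes rose and 19.2% fell (median 0.06). Adamts7, which cleaves cartilage oligomeric matrix protein, rose most, with log2 fold changes of 3.61 and 2.68 for shControl-CM and shBrca2-CM, followed by the aggrecanase Adamts4 (2.38 and 1.77) and by Adam33 (1.31 and 1.66). Next came Adam15 with shControl-CM (0.99) and Adamts10 with shBrca2-CM (1.09). Adamts1, also an aggrecanase, fell (-3.40 and -2.06), as did Adam9 (-2.53 and -1.98), Adamts6 with shControl-CM (-2.23) and Adamts2 with shBrca2-CM (-1.48). For shControl-CM Adam9 stayed DE under all 15 alternatives, with log2 fold changes of -3.37 to -2.04. Adam12 had 69 counts in growth medium and 1 and 2 in the shControl-CM and shBrca2-CM groups, ratios of 27.0 (95% interval 4.68 to 1081) and 8.69 (2.32 to 73.2). Between the CMs only Adamts7 of 16 genes tested was DE, where 3.13% of all genes were, at 193 ± 52.9 CPM in the shBrca2-CM libraries and 377 ± 68.5 CPM in those with shControl-CM (SD, n = 3 each) (log2 fold change -0.93 ± 0.19 SE, adjusted p = 0.0262, edgeR). The call was lost without shBrca2-CM library 1 or 2 (-1.15 to -0.75 over the alternatives), 3 genes of the list were DE without shControl-CM library 1, where the share over all genes was 9.09%, and the median of the list was 0.17.

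Of 15 genes that activate, bind or clear MMPs or act on the plasmin system upstream of them, 12 were tested against growth medium. With shControl-CM 2 rose (Bsg 0.83 and Furin 0.53 in log2 fold change) and 5 fell (Reck -1.69, Tfpi2 -1.64, Plat -1.24, Serpine2 -1.18 and Pcolce -0.54), beside 18.2% and 18.9% of all genes. These 7 calls fell to 3 without growth medium library 1 (Bsg, Furin, Reck and Tfpi2 lost) and to 4 without library 2 (Furin, Tfpi2 and Pcolce lost), with 16.4% and 19.3% of all genes DE in place of 37.1%, and Tfpi2 was also lost in both DESeq2 tests, Furin and Pcolce without shControl-CM library 2, and Pcolce without library 1. With shBrca2-CM only Bsg rose (0.73), and 6 fell (Tfpi2 -1.86, Plaur -1.20, Plat -0.87, Reck -0.83, Serpine2 -0.82 and Pcolce -0.65), beside 18.6% and 19.2% of all genes. Here Reck was lost in both DESeq2 tests, in thinned libraries and without growth medium library 1. Serpine2 was lost without growth medium library 1 and Pcolce without library 2. Tfpi2, with at most 4 counts in a shBrca2-CM library, was lost with the replicate block, in thinned libraries, after edgeR's filterByExpr and without shBrca2-CM library 3. Its log2 fold change ran from -2.89 to -1.07 over the alternatives. Bsg encodes basigin, known as an inducer of MMPs, furin activates pro-MMP14, and RECK is a membrane-anchored inhibitor of several MMPs. Median log2 fold changes were -0.46 and -0.74. Between the CMs none of 11 was DE by edgeR or either DESeq2 test (median -0.07), 1 was without shControl-CM library 3, 3 had an unadjusted p under 0.05, as had 13.4% of all genes tested. These were Serpine2 (log2 fold change 0.38), Plaur (-0.86) and Lrp1 (-0.30), with adjusted p-values of 0.178, 0.219 and 0.266 (edgeR).

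Transcription factors of the AP-1, ETS, NF-κB and C/EBP families, which are known to act on MMP promoters, were then compared. All 15 were tested, and 9 were higher and 1 lower with shControl-CM than with growth medium, where 18.2% of all genes were higher and 18.9% lower. The largest log2 fold changes were those of Fosb (1.97), Cebpb (1.60), Rela (1.47) and Etv5 (1.30), and Ets1 fell (-1.36). Without growth medium library 1 the calls of Fosb, Atf3 and Ets1 were lost, leaving 7 where 16.4% of all genes were DE, and that of Fosb was also lost without library 2. With shBrca2-CM 6 were higher (Etv5 1.41, Rela 1.27, Etv4 1.19, Cebpb 0.95, Jun 0.70 and Junb 0.56) and Ets1 was lower (-1.27), where 18.6% of all genes were higher and 19.2% lower, and the call of Junb was lost without growth medium library 2. Medians were 0.84 and 0.28.

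Between the CMs none of the 15 factors was higher and 4 were lower with shBrca2-CM, where 1.55% of all genes were lower, with a median of -0.25. Fosl1, which encodes the AP-1 subunit FRA-1, was 157 ± 25.8 CPM in the shBrca2-CM libraries and 264 ± 6.36 CPM in those with shControl-CM (SD, n = 3 each) (log2 fold change -0.73 ± 0.15 SE, adjusted p = 0.0235, edgeR). Junb, another AP-1 subunit, differed by -0.63 ± 0.12 SE (adjusted p = 0.0197). Cebpb, a factor of inflammatory responses, differed by -0.64 ± 0.13 SE (adjusted p = 0.0217), and the stress-induced Atf3 by -1.20 ± 0.29 SE (adjusted p = 0.0611). The calls of Fosl1 and Junb were lost without shBrca2-CM library 2 or 3 or shControl-CM library 2, that of Cebpb without any 1 of the shBrca2-CM libraries, and that of Atf3 without any 1 of these 4 libraries and in both DESeq2 tests, while the sign of all 4 was negative in every alternative. Fos and Jun were not among them, and whether the factors act on the MMP and TIMP genes was not tested.

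**Figure D4:**
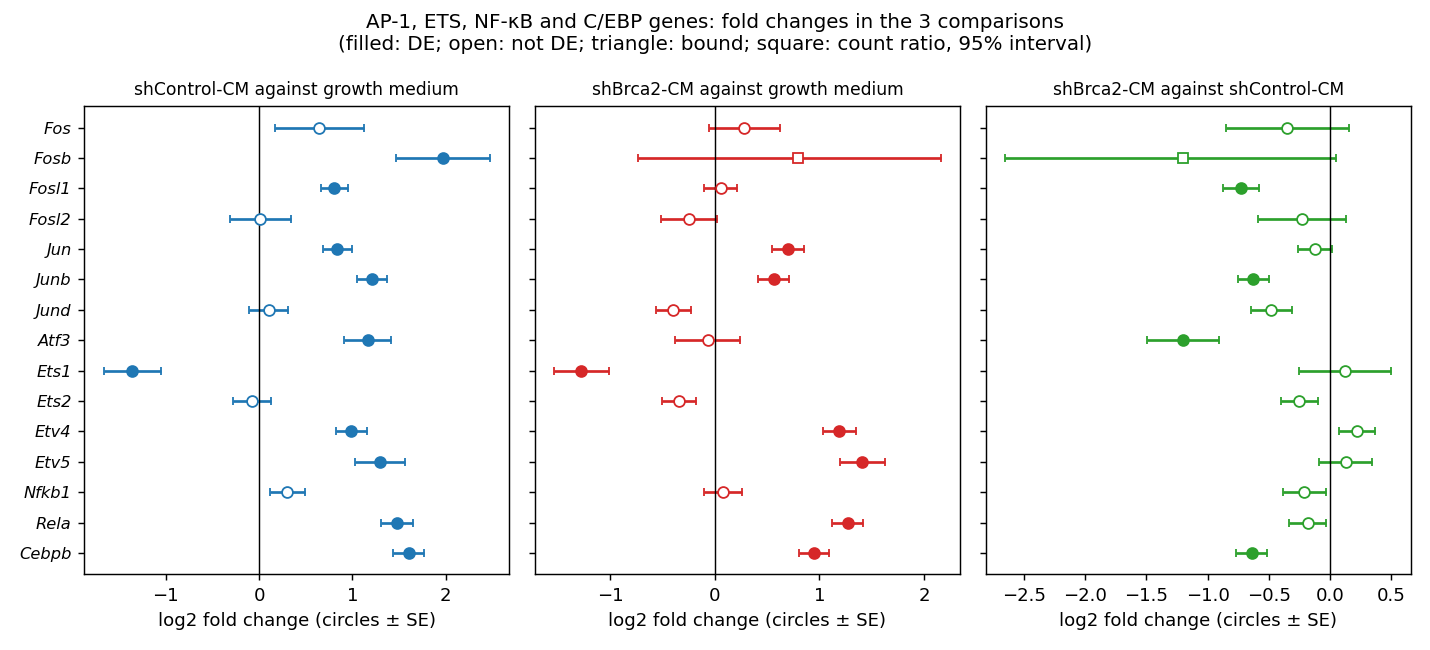
Log2 fold changes of 15 AP-1, ETS, NF-κB and C/EBP genes in the 3 comparisons, with circles for edgeR estimates ± SE, squares for ratios of counts with 95% intervals where a group had at most 3 counts in each library, and filled symbols for DE genes. Most filled symbols lie right of 0 against growth medium, and the 4 filled between the CMs (Fosl1, Junb, Atf3 and Cebpb) lie left of it. The horizontal scales differ between panels.

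Of 19 matrix proteins known as substrates of MMPs, 18 were tested, of which 4 rose and 8 fell with shControl-CM against growth medium (median log2 fold change -0.64), where 18.2% of all genes rose and 18.9% fell. These 12 calls were 9 without growth medium library 1 and 8 without library 2, with 16.4% and 19.3% of all genes DE. With shBrca2-CM 3 rose and 8 fell (median -0.35), where the shares over all genes were 18.6% and 19.2%. Dcn, which encodes the proteoglycan decorin, rose most (4.50 and 3.56), with Lamb1 (1.42 and 1.41) and Tnc (1.12 and 0.68), and Lum rose with shControl-CM (1.33). Elastin (Eln) fell most: it had 788 counts in growth medium and 6 with shControl-CM, a ratio of 51.3 (95% interval 23.5 to 140.3), and a log2 fold change of -4.29 with shBrca2-CM. The genes of the chains of type I collagen fell with both CMs, Col1a1 by 1.45 and 2.04 and Col1a2 by 2.48 and 1.86 on the log2 scale. The growth medium libraries held 99.9 and 225 CPM of Col1a1, whose call for shControl-CM was lost without library 2, and its log2 fold change ran from -1.90 to -0.75 for shControl-CM and from -2.52 to -1.34 for shBrca2-CM over the alternatives. Fbn1 with shControl-CM (-1.07) and Sparc with shBrca2-CM (-1.04) came next. Between the CMs none of the 18 was higher and 2 were lower with shBrca2-CM, where 1.55% of all genes were lower (median 0.04): Dcn (-0.93, adjusted p = 0.00314, edgeR) and Lum (-1.59, adjusted p = 0.0849), which encodes the collagen-binding lumican. Dcn stayed DE without any 1 library, whereas the call of Lum was lost without any 1 of the shBrca2-CM libraries, without shControl-CM library 2 and in both DESeq2 tests. The list held 4 DE genes between the CMs without shControl-CM library 1, where 9.09% of all genes were DE.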

How the data were processed

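RNA of 8 PSC libraries (3 shBrca2-CM, 3 shControl-CM, 2 growth medium) was measured by a MARS-seq protocol for 3′ ends on a NextSeq sequencer. The authors deposited raw counts per gene, 1 column for each dome and without normalization. The submitters' processing notes name bcl2fastq, cutadapt, STAR 2.4.2a, HTSeq, DESeq2 and mm10. The annotation, the strand setting and the treatment of molecular identifiers are not given in the sources used here, so overlapping genes cannot be told apart and intervals cover counting error only. A further 1 per-sample column, whose name points to the growth medium group, could not be matched to the sample records and was left out.

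Each pair of groups was fitted alone in R 4.3.3 with edgeR 4.0.16 (TMM, genes with at least 10 counts over the libraries fitted, quasi-likelihood test, Benjamini-Hochberg adjustment over all genes tested). The rule for DE genes is given with the first result. SEs are the log2 fold change divided by the square root of F. With 3 or fewer counts in every library of a group, the ratio of summed counts with an exact 95% interval is given, or, with no count at all, a bound at the level of 3 counts per library. The test was tried on simulated counts as a check of the procedure, and the outcome is not reported here. Sequences and gene positions came from RefSeq tables of GRCm38.p6.

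The 10 genes and the lists were chosen with earlier results of these data known. Genes of the lists were named where 8 or fewer were DE in a comparison, otherwise the 4 largest changes in each direction among genes without overlap between the groups. Alternatives were DESeq2 1.42.0 (likelihood ratio or Wald test), its size factors or total counts, a replicate block, 1 fit over all 3 groups, thinning of libraries to the smallest total, other thresholds and filters, and each library left out in turn. No 2 libraries of a group agreed within sampling noise.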

Additional observations from a re-analysis of the deposited data

How the results depend on the processing

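Between the CMs, Timp1 was DE under every alternative run, while Mmp3 or Timp3 was lost under several, as given with their values. The count of DE genes among the 10 was 1 with stricter thresholds (adjusted p under 0.05 and log2 fold change over 1) or with the replicate block, and 1 to 4 when each library was left out in turn. Over all genes it was 345, and 130 with stricter thresholds and 128 to 976 with each library left out, the highest without shControl-CM library 1. For shControl-CM against growth medium stricter thresholds left 6 of the 10 genes and 2375 of 4488 genes, and leaving out libraries left 7 to 9 and 1901 to 5157. For shBrca2-CM against growth medium stricter thresholds left 6 of the 10 genes (Mmp14 and Timp1 lost) and 2185 of 4555 genes, and leaving out libraries left 8 to 9 and 3903 to 4510. The cause of these changes was not tested.

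Among the 10 genes, the sign changed only for log2 fold changes between the CMs that were not DE: Mmp10, -0.64 to 0.50 over the left-out libraries (0.12 without shBrca2-CM library 1 and 0.50 without shControl-CM library 3), and Mmp14, -0.46 to 0.0348. With total counts in place of TMM, 67.6% of the genes DE between the CMs were higher with shBrca2-CM, against 50.4% with TMM, and the median of all genes moved from 0.03 to 0.14. Mmp10 against growth medium with shControl-CM was not called with all 3 groups in one fit, in thinned libraries, after edgeR's filterByExpr or without shControl-CM library 3. Several calls of other listed genes for shControl-CM against growth medium were lost without growth medium library 1 or 2, Fosb and Lum among them. Of the fold changes of the 10 genes under alternatives other than left-out libraries, 87 of 96 between the CMs, 89 of 99 for shControl-CM and 95 of 98 for shBrca2-CM kept their direction and side of the threshold.

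Same-numbered libraries did not deviate together (correlation -0.07, 0.03 and 0.16 for the CMs), so the numbers were not taken to pair the samples. With the replicate block 311 genes and 1 of the 10 (Timp1) were DE between the CMs, 4512 and 10 for shControl-CM, and 3850 and 9 (Timp2 added) for shBrca2-CM. Depth limited Mmp9 and Mmp10 most, which had at most 17 counts in any CM library.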

Other observations

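For each of the 10 genes, the other genes whose pattern over the 8 libraries was most like it were sought by the root mean square difference of gene-centred log2 CPM, among 6216 genes with a mean of at least 20 CPM. The genes share libraries, and the figures are descriptions.

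Saa3, an acute phase serum amyloid gene, was nearest to Mmp3 (0.65), whose means were 10160.1, 36109 and 165 CPM for shBrca2-CM, shControl-CM and growth medium. Next to both Mmp3 (0.72) and Mmp13 (0.75) came the agouti gene a, at 89.2, 140.0 and 3.20 CPM in the same order. Decorin (Dcn) was the second nearest to Mmp13 (0.89), at 1086, 2107 and 92.4 CPM.

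Timp1 was closest to Rnf149, a ubiquitin ligase gene (0.13), at 363, 785 and 234 CPM, and to the stress-response gene Ddit4 (0.17). Timp3 was closest to Adamtsl4 (0.18) and Apbb1ip (0.19), and Timp2 to Kdm6b (0.08) and Ank (0.10). Mmp14 was closest to Psmg3 (0.08) and Atp5g1 (0.15), Mmp2 to the proteasome gene Psmb7 (0.10) and Tubgcp6 (0.12), and Mmp19 to Dalrd3 (0.10). The nearest genes to Mmp9 were Capn6 (0.54) and Pum2 (0.58), and those to Mmp10 were Suco (0.40) and Mettl8 (0.50). A prior count of 2 entered the log2 CPM, and Mmp10 had 0 counts in growth medium and at most 11 in a CM library. Its distances therefore depend on that prior and cannot be ranked against those of abundant genes.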
